A study of Rattus norvegicus with 36 samples.

Results

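The conjugation enzymes described here are the genes of the array whose symbol in the platform annotation begins with Ugt, Gst, Mgst, Sult or Nat, followed by a digit or by a class letter and a digit. They came to 27 of the 6444 genes that the annotation names by 1 symbol. There were 9 cytosolic glutathione S-transferases (Gst), 1 microsomal glutathione S-transferase (Mgst1), 5 glycosyltransferases of the Ugt family, 9 sulfotransferases (Sult) and 3 genes named Nat. The rule reads symbols only, but it was set with earlier results of these data known. For a gene with several probes the brighter was used, which concerned Sult1d1, and 1 probe named for both Sult2a2 and Sult2a1 was left out. All 27 were tested in every comparison, and no rat lacked a value.

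Conjugation joins a water-soluble group to a drug, toxin, hormone or lipid product, so that transporters can carry it into urine or bile. Ugt enzymes take glucuronic acid from UDP-glucuronic acid, Gst enzymes join glutathione to electrophiles, and Sult enzymes take sulfate from the donor PAPS. In the kidney much of this chemistry takes place in the proximal tubule, where glutathione conjugates are also trimmed to cysteine conjugates and acetylated to mercapturates. The rule does not ask for this function, and some members, such as Ugt8 and Nat10, share the names but not the function. Ugt8 adds galactose to ceramide, and Nat10 acetylates cytidine in RNA.

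The study used CodeLink arrays on kidney RNA from 31 male rats aged 6 to 8 weeks, on 36 arrays, with some rats measured on 2 arrays. Both kidneys were made ischemic for 40 min in the ischemia groups, with 4 rats harvested 2 h and 3 rats 8 h into reperfusion. Another 3 ischemic rats were given 50 µg of αMSH, a melanocortin peptide hormone, into a vein and were harvested at 2 h. Nephrotoxic injury was produced with mercuric chloride at 4 mg/kg under the skin, harvested at 2 h (3 rats) or 8 h (3 rats), or with cisplatin at 20 mg/kg into the peritoneum, harvested at 2 h (3 rats). The other groups were sham surgery of 40 min harvested at 8 h (3 rats), volume depletion by furosemide at 20 mg/kg at 0 and 8 h on a sodium-deficient diet harvested at 24 h (4 rats), and 5 untreated normal rats. The arrays came in 2 lots, and each group was set against the normal rats of its own lot: normal rats 11 and 12 for sham, cisplatin and mercuric chloride 8 h (lot 2), and normal rats 1 to 3 for all other groups (lot 1). No sham group was harvested at 2 h, the labels used here name no strain, and each sample is part of a whole kidney. Because every group of a lot is compared with the same normal rats, changes in different groups of that lot are not independent of each other.

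A level is given here as the log2 of the probe's intensity over the median intensity of its array, with a floor of 0.1 of that median, which is -3.32 on the log2 scale. A change is the difference between 2 group means of such levels, with its standard error (SE). It was tested with limma over all probes, and a gene is said to rise or fall where the Benjamini-Hochberg adjusted p was under 0.05. Levels of different probes are not compared with each other. Rat 3 of the ischemia 8 h group, measured on 1 array, was unlike the rest: its median correlation with the other arrays of its group was 0.926, and 1.65% of its probes were at the floor, against 10.65% to 12.18% on the other arrays of the group. Results that rest on it are given with and without it. Kidney markers were present in every rat, with Lrp2 levels of 4.43 to 6.05, Aqp1 levels of 3.65 to 5.20 and Aqp2 levels of 2.49 to 4.70. Umod, also a kidney marker, varied more, from 1.19 to 6.20. It was 1.19 to 5.09 at 8 h of ischemia and 3.03 to 6.20 in the normal rats of lot 1. Albumin (Alb), the defining liver marker, was at the floor in 22 of 31 rats and never above -1.70. Adipoq, a marker of fat tissue, was above the floor in all 31 rats, at -0.66 to 1.28. In whole-kidney RNA, fewer cells of a type and less RNA per cell cannot be told apart.

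The members moved mainly in the ischemia 8 h group. There 14 of 27 passed the test, 3 higher (11.1% of the members) and 11 lower (40.7%), while 41.7% of all probes passed, 20.8% higher and 20.9% lower. The median change over the members was -0.53, against 0.01 over all probes tested. In the ischemia 2 h group 2 of 27 (7.41%) fell and none rose, with 14.7% of all probes passing, 7.36% higher and 7.37% lower. In the group given αMSH 1 (3.7%) fell, with 13.3% of all probes passing, 6.69% higher and 6.61% lower. At 2 h after mercuric chloride 1 rose and 2 fell (11.1% together), with 7.68% of all probes passing, 3.07% higher and 4.61% lower. At 8 h after mercuric chloride 2 (7.41%) rose and none fell, with 10.9% of all probes passing, 5.27% higher and 5.66% lower. No member passed after volume depletion, cisplatin or sham surgery by limma, where 0.169% (0.0739% higher, 0.0951% lower), 0.574% (0.532% higher, 0.0425% lower) and 0.351% (0.298% higher, 0.0531% lower) of all probes passed. At an unadjusted p under 0.05, 4 members stood in volume depletion, 1 in cisplatin and 0 in sham. The members' share was below that of all probes at 2 h of ischemia, with and without αMSH, and at 8 h after mercuric chloride. It was above that of all probes at 8 h of ischemia, at 51.9% against 41.7%. There the share of members was larger for falls and smaller for rises. It was also above at 2 h after mercuric chloride, where it rests on 3 genes. Members that passed in no comparison with normal rats are named below where their values show how a family varied, and apart from Gstm1 they were chosen after their values were seen.

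**Figure D1:**
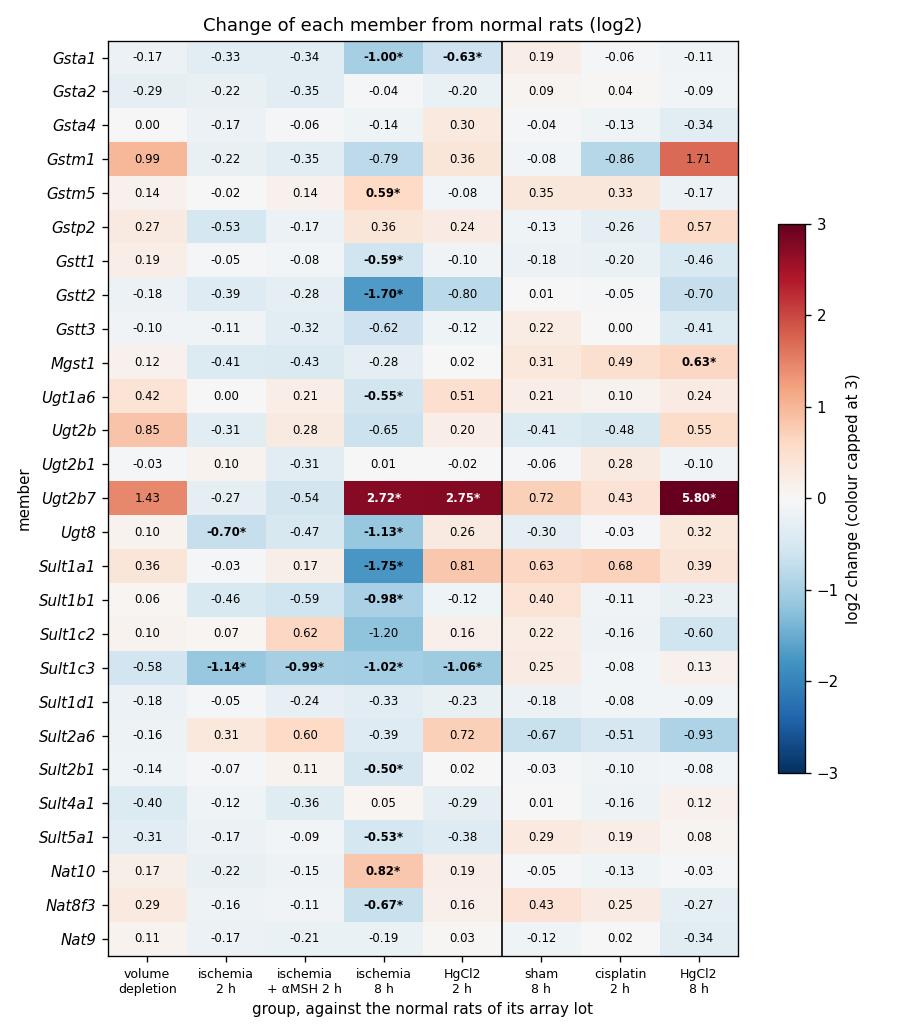
Log2 change of each of the 27 members (rows) in the 8 treated groups (columns) from the normal rats of the same array lot, with a line between lot 1 on the left and lot 2 on the right. An asterisk marks an adjusted p under 0.05: most asterisks lie in the ischemia 8 h column, and the largest change is that of Ugt2b7 at 8 h after mercuric chloride, at 5.80.

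Ugt2b7 had the largest change of any member. The enzyme belongs to the UGT2B subfamily, which glucuronidates steroids and many drugs. Its gene lies on chromosome 14 between Ugt2b and Ugt2b1, the other members of that subfamily here. The promoters of the 3 genes are shown because their transcripts behaved differently in the same kidneys. They are RefSeq sequences of the GRCr8 assembly, the 250 bases before the annotated start, on the plus strand: chr14:21251285-21251534 for Ugt2b7, chr14:20985199-20985448 for Ugt2b and chr14:21378632-21378881 for Ugt2b1. Capitals mark the longest run that Ugt2b7 and Ugt2b share.
Ugt2b7: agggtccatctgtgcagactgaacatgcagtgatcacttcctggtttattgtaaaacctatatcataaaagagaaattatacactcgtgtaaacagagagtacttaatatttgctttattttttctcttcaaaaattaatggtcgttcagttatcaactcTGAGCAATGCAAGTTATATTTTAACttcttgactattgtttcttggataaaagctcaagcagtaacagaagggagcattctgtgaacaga
Ugt2b: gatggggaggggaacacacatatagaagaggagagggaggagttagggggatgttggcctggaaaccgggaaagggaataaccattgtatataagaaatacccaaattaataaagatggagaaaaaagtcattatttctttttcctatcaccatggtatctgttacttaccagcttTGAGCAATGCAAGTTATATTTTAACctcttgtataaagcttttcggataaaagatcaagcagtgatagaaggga
Ugt2b1: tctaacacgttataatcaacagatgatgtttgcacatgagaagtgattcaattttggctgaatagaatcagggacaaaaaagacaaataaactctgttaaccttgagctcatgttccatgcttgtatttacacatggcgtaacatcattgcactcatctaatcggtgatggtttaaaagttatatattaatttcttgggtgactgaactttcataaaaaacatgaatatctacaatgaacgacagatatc
The run is 25 bases long and begins 90 bases before the start of Ugt2b7 and 74 bases before that of Ugt2b. It occurs on either strand in 7 of the 33469 promoters of the same length in the table. The longest run that Ugt2b1 shares with either of them is 9 bases.

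In the normal rats of lot 1 the Ugt2b7 level was -1.12, -3.21 and -1.64, and in those of lot 2 it was -1.73 and -2.06. At 2 h after mercuric chloride it was 0.37, 1.14 and 0.78, and at 8 h 3.73, 3.50 and 4.48. All 6 rats given mercuric chloride were above every normal rat. The change from normal was 2.75 ± 0.63 (SE) at 2 h, 6.74-fold (adjusted p = 0.00743), and 5.80 ± 0.71 at 8 h, 55.7-fold (adjusted p = 3.79e-06). Against the sham rats harvested at the same hour, whose levels were -2.19, -0.36 and -0.97, the 8 h change was 5.08 ± 0.63 (adjusted p = 3.83e-06). The 8 h results passed without any single rat. The 2 h result was 2.14 without normal rat 2 (adjusted p = 0.0627), whose level was close to the floor.

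After ischemia Ugt2b7 was -2.79, -2.57, -1.28 and -2.39 at 2 h, and -2.56, -2.43 and -2.61 at 2 h with αMSH. These levels overlapped those of the normal rats. At 8 h they were -0.56, 0.29 and 2.46, each above the normal rats of the lot, a change of 2.72 ± 0.63 or 6.59-fold (adjusted p = 0.00116). Rat 3 was the highest, and without it the change was 1.85 ± 0.60 (adjusted p = 0.0141). In volume depletion the levels were -0.55, -0.96, -0.56 and -0.16, all above the normal rats of the lot, but the change of 1.43 ± 0.59 did not pass (adjusted p = 0.698). Cisplatin rats were at -0.08, -1.86 and -2.46, which overlapped the normal rats. The 8 h change was larger after mercuric chloride than after ischemia by 3.08 ± 0.95 (adjusted p = 0.0343), once each was taken from the normal rats of its lot. That difference did not pass without any of 8 of the 11 rats, with changes from 2.43 to 3.24 and adjusted p up to 0.136. The difference of 3.05 ± 0.95 between 8 h and 2 h after mercuric chloride did not pass (adjusted p = 0.162), and those hours lie on different lots.

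**Figure D2:**
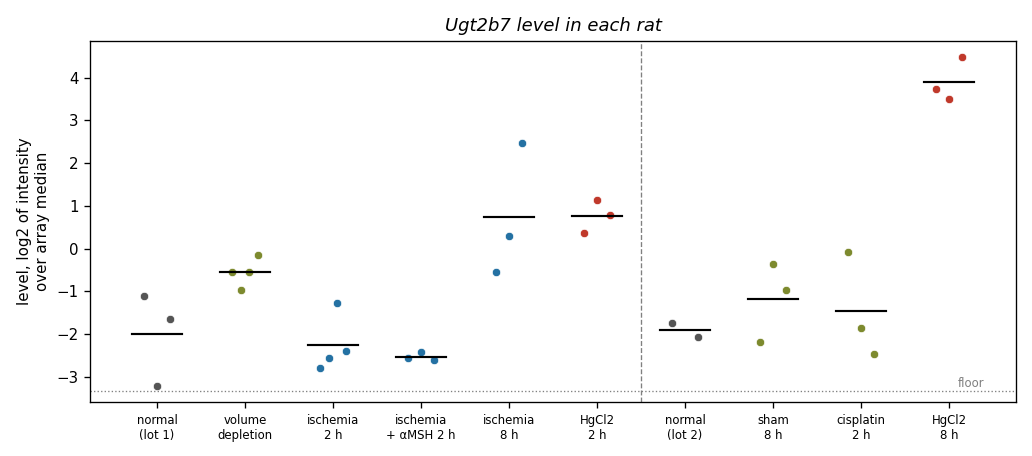
Ugt2b7 level in each rat (points; log2 of intensity over the array median) with the group mean (line), by group. The dashed line separates the array lots and the dotted line is the floor. The 3 rats at 8 h after mercuric chloride lie between 3.50 and 4.48, above all other rats.

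Ugt2b and Ugt2b1 passed in none of the comparisons. At 8 h after mercuric chloride Ugt2b was 0.10, 0.01 and 1.25 against 0.04 and -0.22 in normal rats, a change of 0.55 ± 0.48 with a 95% interval of -0.45 to 1.54. Ugt2b1 was -1.66, -1.33 and -2.40 against -1.66 and -1.74, a change of -0.10 ± 0.31 with an interval of -0.73 to 0.54. Both intervals lie below the 4.34 to 7.26 of Ugt2b7 in the same rats.

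Ugt1a6, which glucuronidates small phenols, was 2.75, 2.69 and 1.94 at 8 h of ischemia against 2.93, 3.02 and 3.08 in normal rats. All 3 treated rats were lower, and the change was -0.55 ± 0.19 (adjusted p = 0.0222). It rested on rat 3, the lowest, without which it was -0.29 ± 0.18 (adjusted p = 0.188). It was also lost without normal rat 2 (-0.55, adjusted p = 0.0524) or normal rat 3 (-0.52, adjusted p = 0.065). At 2 h after mercuric chloride Ugt1a6 was 3.18, 3.75 and 3.63, above the normal rats, but its change of 0.51 did not pass.

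Ugt8, the galactosyltransferase that starts the synthesis of galactosylceramide and sulfatide, was lower after ischemia at both hours. Its levels were -0.63, -0.68 and -0.32 in the normal rats. They were -1.36, -1.72, -0.96 and -0.91 at 2 h and -1.79, -1.83 and -1.41 at 8 h. No ischemic rat reached the lowest normal rat, and the changes were -0.70 ± 0.16 at 2 h (1.62-fold lower, adjusted p = 0.00361) and -1.13 ± 0.17 at 8 h (2.19-fold lower, adjusted p = 9.54e-06). With αMSH its levels were -0.96, -0.84 and -1.22, also below the normal rats, and the change of -0.47 did not pass. After mercuric chloride the sign was opposite. At 8 h Ugt8 was 0.24, 0.08 and -0.11 against -0.55, -0.62 and -0.47 in sham rats, a change of 0.62 ± 0.17 (adjusted p = 0.0168). This call was lost without mercuric chloride rat 1 (0.53, adjusted p = 0.0953) or rat 2 (0.62, adjusted p = 0.0505), and without sham rat 1 (0.62, adjusted p = 0.0505) or rat 2 (0.58, adjusted p = 0.0652). Against normal rats the 8 h change was 0.32 and did not pass. The 8 h changes after the 2 injuries differed by 1.45 ± 0.26 (adjusted p = 0.000469), a call that held without any single rat.

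**Figure D3:**
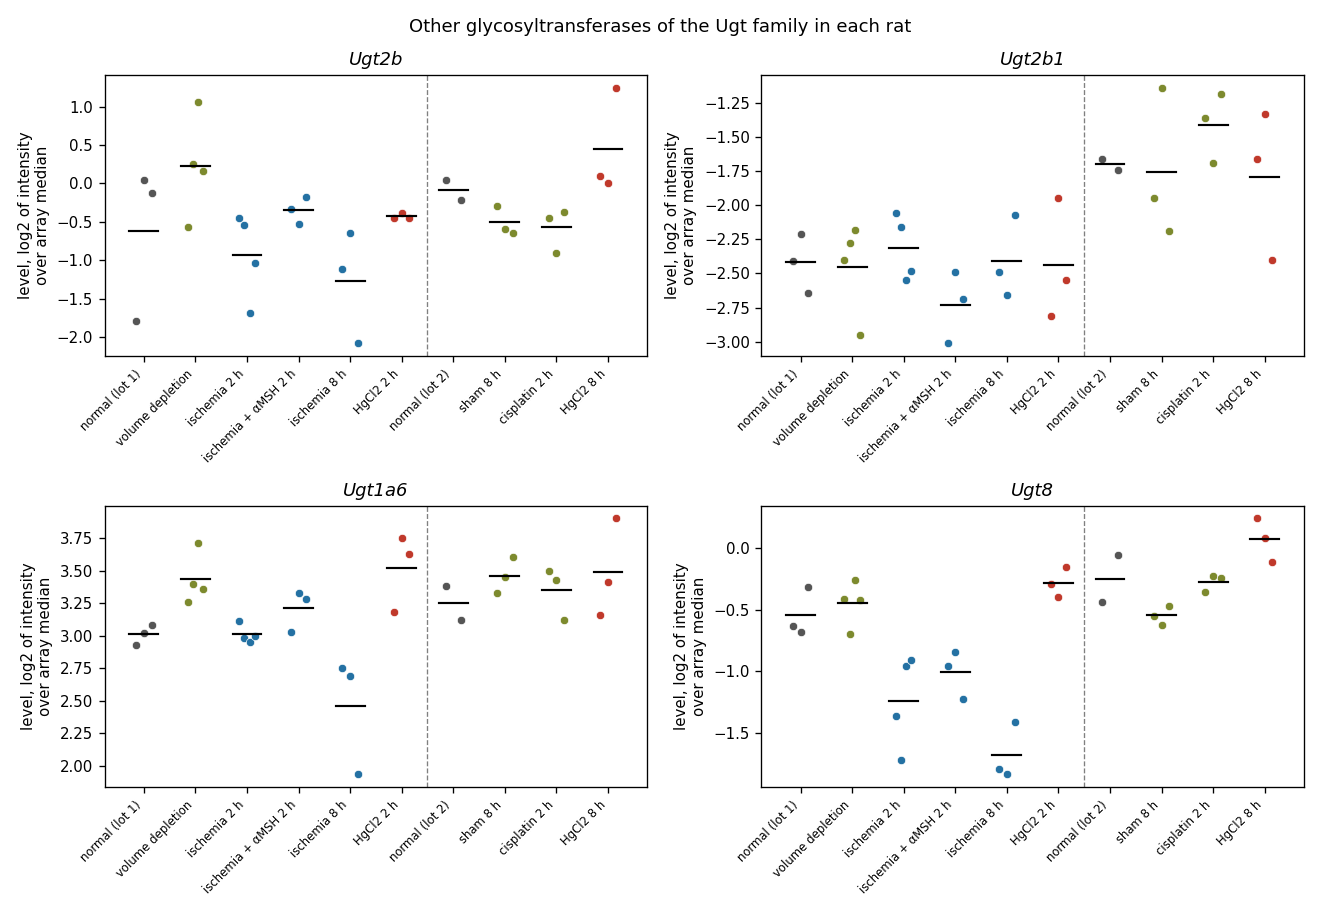
Levels of Ugt2b, Ugt2b1, Ugt1a6 and Ugt8 in each rat (points; log2 of intensity over the array median) with group means (lines), lots separated by the dashed line. Ugt8 lies lowest at 8 h of ischemia, at -1.83 to -1.41.

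Of the 9 cytosolic glutathione transferases, 3 fell 8 h after ischemia (Gsta1, Gstt1 and Gstt2) and 1 rose (Gstm5). Among all probes 20.9% fell and 20.8% rose there. Gsta1, an alpha-class enzyme that also reduces lipid hydroperoxides, was 4.75, 4.80 and 5.05 against 6.31, 5.55 and 5.75 in normal rats. The groups did not overlap, and the change was -1.0 ± 0.18, 2-fold lower (adjusted p = 7.18e-05). At 2 h after mercuric chloride it was 5.37, 5.19 and 5.14, again below every normal rat of the lot, a change of -0.63 ± 0.18 (adjusted p = 0.0293). The latter did not pass without normal rat 1, the highest (-0.42, adjusted p = 0.217), nor without mercuric chloride rat 1 (-0.70, adjusted p = 0.0527), rat 2 (-0.61, adjusted p = 0.0821) or rat 3 (-0.59, adjusted p = 0.11). At 8 h after mercuric chloride Gsta1 was 5.33, 5.21 and 5.80, which overlapped the normal rats of its lot at 5.63 and 5.49.

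Gstt2, of the theta class, fell furthest among the glutathione transferases. Its levels at 8 h of ischemia were 1.42, 1.25 and 2.00 against 3.75, 3.07 and 2.96 in normal rats, with no overlap. The change was -1.70 ± 0.31, 3.26-fold lower (adjusted p = 7.13e-05), and held without any single rat. Gstt1, the theta-class enzyme known for acting on small halogenated compounds, was 1.25, 1.53 and 2.09 against 2.34, 1.98 and 2.30. Rat 3 lay within the normal range, and the change was -0.59 ± 0.17 (adjusted p = 0.00731). Without ischemia rat 1 it was -0.40 (adjusted p = 0.0677). Gstt3 was 5.26, 4.82 and 6.22 against 6.50, 5.70 and 5.96, and its change of -0.62 ± 0.26 just missed (adjusted p = 0.0562). Without rat 3 all 3 theta-class genes were lower: Gstt1 by -0.82, Gstt2 by -1.93 and Gstt3 by -1.02 (adjusted p = 0.000148, 4.29e-05 and 0.000809).

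Rat 3 set the values of several other glutathione transferases at 8 h of ischemia. Gsta2, another alpha-class enzyme, was 6.06, 6.11 and 8.18 against 7.30, 6.44 and 6.73. Rats 1 and 2 were below the normal rats and rat 3 above them, so that the change was -0.04 with rat 3 and -0.74 ± 0.23 without it (adjusted p = 0.0118). Gsta4, which conjugates the lipid peroxidation product 4-hydroxynonenal, was 5.23, 4.88 and 6.50 against 6.07, 5.55 and 5.40, and did not pass either way (-0.14, and -0.62 without rat 3). Gstp2, of the pi class, was 5.92, 6.23 and 7.11 against 6.33, 5.90 and 5.98, a change of 0.36 that was 0.01 without rat 3.

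Gstm5, of the mu class, was the only glutathione transferase that rose at 8 h of ischemia. Its levels were -0.52, -0.35 and 0.48 against -0.66, -0.91 and -0.59 in normal rats, a change of 0.59 ± 0.20 (adjusted p = 0.0177). All 3 rats were above the normal rats, but without rat 3 the change was 0.29 (adjusted p = 0.179), and without normal rat 2 it was 0.49 (adjusted p = 0.0848). At 8 h after mercuric chloride Gstm5 was -1.19, -1.03 and -1.01, and did not pass. These levels were below the normal rats of lot 2, at -0.96 and -0.84, and the sham rats, at -0.33, -0.78 and -0.54. The Gstm5 promoter is shown for TGACNNNGC, the core of the antioxidant response element bound by Nrf2. Of the 23 members with a promoter in the RefSeq table, it alone held this motif in the 250 bases before the start. Bases further upstream were not searched for this or the other motifs. The window is chr2:198219519-198219768 of GRCr8, plus strand, and capitals mark the matches.
Gstm5: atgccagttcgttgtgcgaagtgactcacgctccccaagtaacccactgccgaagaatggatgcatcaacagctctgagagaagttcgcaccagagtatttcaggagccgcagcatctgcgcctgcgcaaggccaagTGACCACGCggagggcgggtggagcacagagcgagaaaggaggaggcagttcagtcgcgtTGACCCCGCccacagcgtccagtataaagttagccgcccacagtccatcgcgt
The matches begin 113 and 53 bases before the start. Searched on both strands, the motif stood in 10.1% of all 33469 promoters of this length. Gstm5 was also the only member with TGAGTCA, the activator protein 1 motif, found in 4.05% of all promoters. The core of the Ah receptor element, GCGTG, stood in 8 of the 23 (25.9% of all promoters): Gsta2, Gsta4, Gstm5, Ugt1a6, Ugt8, Sult2b1, Nat9 and Nat10. In Gstm5 its match at base 109 overlaps the first capital run, and that at base 224 overlaps TGAGTCA. The TATA box TATAAA stood in 6 (12.9% of all promoters). Such matches describe these letters only and are not sites of binding.

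Mgst1, a membrane-bound transferase and peroxidase, rose at 8 h after mercuric chloride. It was 4.25, 4.07 and 4.36 against 3.67 and 3.53 in the normal rats of lot 2, a change of 0.63 ± 0.20 (adjusted p = 0.0413). Those normal rats were themselves lower than the normal rats of lot 1, at 4.53, 4.00 and 4.30, by -0.68 ± 0.20 (adjusted p = 0.0403), where 6.33% of all probes passed, 2.93% higher and 3.4% lower. Against the sham rats, at 3.85, 4.03 and 3.85, all 3 treated rats were higher but the change of 0.32 did not pass. The call against normal rats was lost without mercuric chloride rat 1 (0.62, adjusted p = 0.102) or rat 3 (0.56, adjusted p = 0.111), and without normal rat 11 (0.70, adjusted p = 0.136) or normal rat 12 (0.56, adjusted p = 0.281). With no lot term in the fit the change was 0.22 against normal rats (adjusted p = 0.465) and 0.24 against ischemia at 8 h (adjusted p = 0.421). The lot difference was lost without normal rat 1 (-0.55, adjusted p = 0.169), rat 3 (-0.67, adjusted p = 0.0817), rat 11 (-0.75, adjusted p = 0.15) or rat 12 (-0.61, adjusted p = 0.318).

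Gstm1, the main mu-class enzyme, passed in no comparison, yet had the largest change among the members that did not pass. At 8 h after mercuric chloride it was 4.03, 3.76 and 4.90, above the normal rats at 2.38 and 2.67, a change of 1.71 ± 0.84 (adjusted p = 0.234). Its levels spread widely within groups, for example 0.50 to 3.34 at 2 h of ischemia and 0.82 to 3.34 after cisplatin. The standard error of its changes from normal was 0.70 to 0.84, against 0.17 to 0.20 for Gsta1. Gstp2 at 8 h after mercuric chloride was 6.91, 6.77 and 7.04, above the normal rats at 6.36 and 6.31 and the sham rats at 6.28, 6.02 and 6.31. Its changes of 0.57 and 0.70 did not pass (adjusted p = 0.218 and 0.0587).

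**Figure D4:**
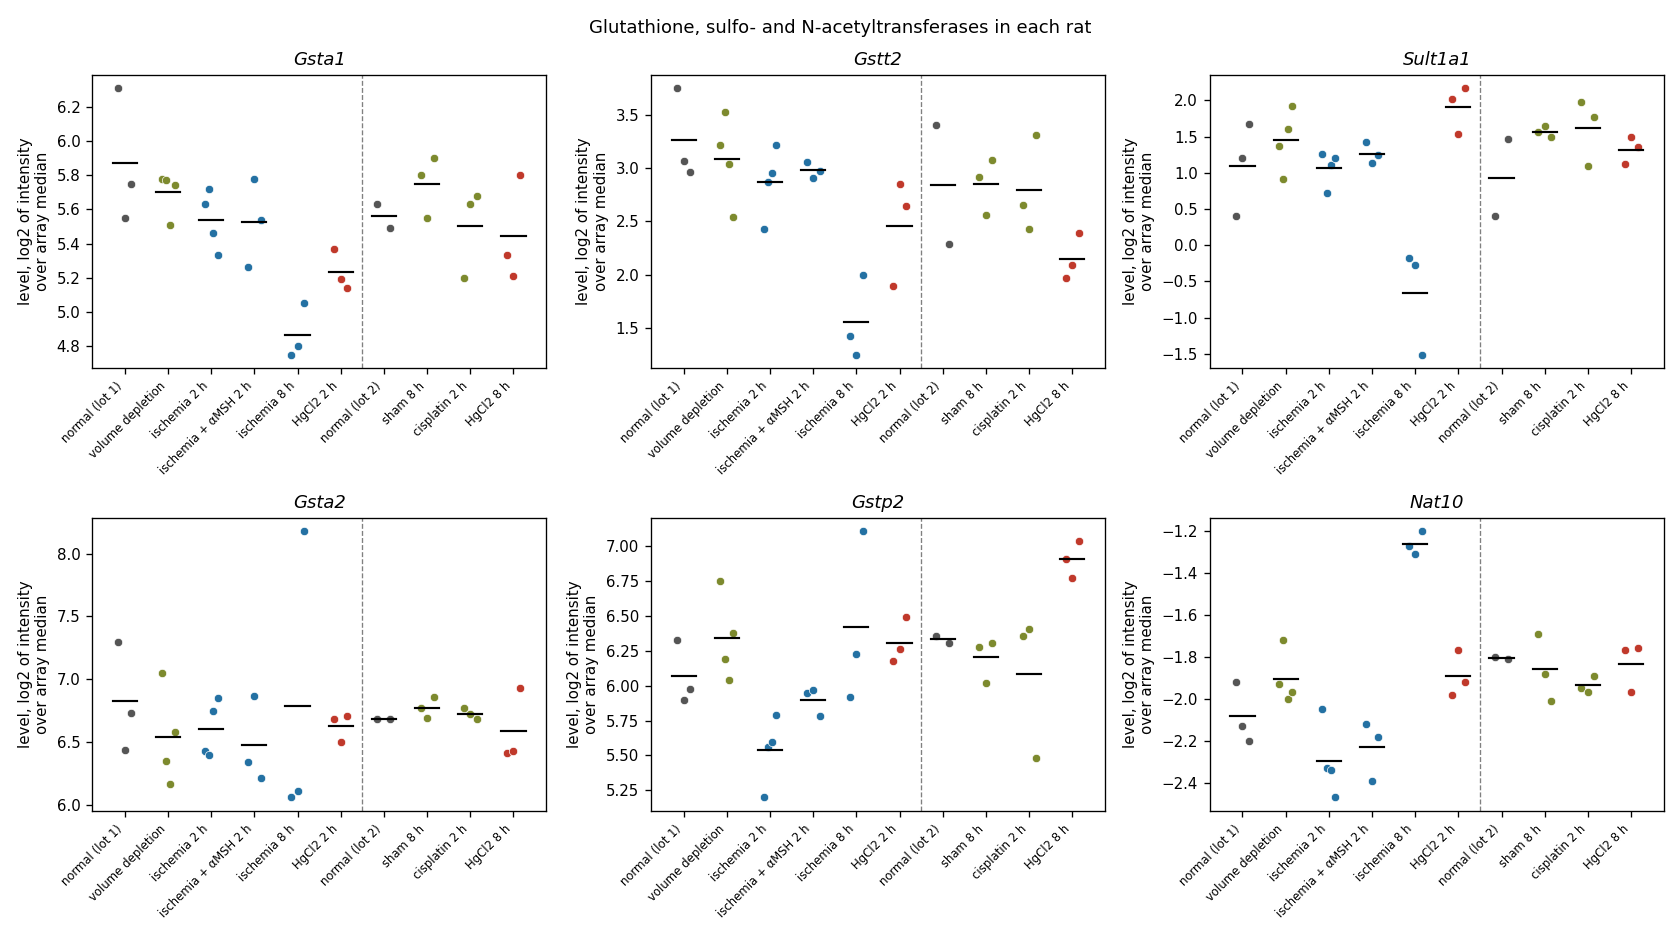
Levels of Gsta1, Gstt2, Sult1a1, Gsta2, Gstp2 and Nat10 in each rat (points; log2 of intensity over the array median) with group means (lines), lots separated by the dashed line. Gsta1, Gstt2 and Sult1a1 are lowest and Nat10 highest at 8 h of ischemia, and Gsta2 shows rat 3 of that group at 8.18.

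Of the 9 sulfotransferases, 5 fell 8 h after ischemia and none rose, where 20.9% of all probes fell and 20.8% rose. Of the 5, only the Sult1a1 call held with each rat left out in turn. Sult1a1, the phenol sulfotransferase, was -0.18, -0.27 and -1.51 against 0.40, 1.21 and 1.68 in normal rats. The groups did not overlap, and the change was -1.75 ± 0.34, 3.36-fold lower (adjusted p = 0.000152). Without rat 3, the lowest, it was -1.32 (adjusted p = 0.00178), and the call held without any single rat. At 2 h of ischemia its levels were 1.26, 0.72, 1.11 and 1.20, within the normal range. At 2 h after mercuric chloride they were 2.02, 1.53 and 2.17, a change of 0.81 that did not pass.

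Sult1b1, which sulfates thyroid hormones and phenols, was -1.73, -2.10 and -1.22 at 8 h of ischemia against -0.35, -1.55 and -0.21. The groups overlapped, and the change was -0.98 ± 0.33 (adjusted p = 0.0185). It did not pass without ischemia rat 2 (-0.77, adjusted p = 0.0912), normal rat 1 (-0.80, adjusted p = 0.0847) or normal rat 3 (-0.74, adjusted p = 0.112). Sult2b1, which sulfates cholesterol and related sterols, was -0.53, -0.50 and -1.13 against -0.57, -0.11 and 0.00, with overlap and a change of -0.50 ± 0.17 (adjusted p = 0.0199). That call was lost without ischemia rat 3 (-0.29, adjusted p = 0.15), normal rat 2 (-0.44, adjusted p = 0.0787) or normal rat 3 (-0.38, adjusted p = 0.11).

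Sult1c3 and Sult5a1 lay near the floor of the measurement. Sult1c3 was -1.44, -2.59 and -2.12 in the normal rats of lot 1. It was -3.32, -3.17, -2.95 and -3.32 at 2 h of ischemia, -2.99, -3.32 and -2.81 with αMSH, -3.32, -3.32 and -2.57 at 8 h, and -3.28, -3.32 and -2.72 at 2 h after mercuric chloride. Each of those groups held at least 1 rat at the floor. The changes were -1.14, -0.99, -1.02 and -1.06 (adjusted p = 0.00437, 0.0241, 0.00622 and 0.0245), and all use the same 3 normal rats. None passed without normal rat 1, with changes of -0.84, -0.69, -0.72 and -0.76 (adjusted p = 0.061, 0.19, 0.061 and 0.175). The αMSH call was also lost without αMSH rat 1 or rat 2 (-1.02 and -0.85, adjusted p = 0.0599 and 0.101), and the mercuric chloride call without its rat 1 or rat 2 (-0.97 and -0.95, adjusted p = 0.102 and 0.0908). The size of these changes depends on the floor. With the floor at 0.2 of the array median all 4 were -0.36, which passed at 2 h and 8 h of ischemia (adjusted p = 0.0362 and 0.022) and not with αMSH or mercuric chloride (adjusted p = 0.0554 and 0.0736). Sult5a1 was at the floor in all 3 ischemia 8 h rats, and at -3.28, -2.67 and -2.43 in normal rats, so that it was at least 1.44-fold lower (adjusted p = 0.0105). It did not pass without normal rat 2 (-0.47, adjusted p = 0.0501) or normal rat 3 (-0.35, adjusted p = 0.105).

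The other 4 sulfotransferases passed in no comparison with normal rats. The largest change among them was that of Sult1c2 at 8 h of ischemia, at 3.82, 3.47 and 0.40 against 2.67, 3.99 and 4.63. Rat 3 alone was low, and the change of -1.20 was -0.11 without it. Sult1d1 changed by at most 0.33 in size against normal rats, and Sult4a1 by at most 0.40. Sult2a6, which sulfates steroids and bile acids, was -2.66, -2.23 and -2.36 at 8 h after mercuric chloride, below both normal rats at -1.0 and -1.97, but its change of -0.93 ± 0.47 did not pass (adjusted p = 0.25).

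Among the genes named Nat, Nat10 rose and Nat8f3 fell 8 h after ischemia. Nat10, the RNA cytidine acetyltransferase, was -1.27, -1.31 and -1.20 against -1.92, -2.13 and -2.20, with no overlap. Its change of 0.82 ± 0.11 (1.76-fold, adjusted p = 2.29e-06) was 0.79 without rat 3. All 4 rats at 2 h of ischemia, at -2.05, -2.33, -2.34 and -2.47, were below the 8 h rats. Nat8f3, of the Nat8 family, whose founding enzyme acetylates cysteine conjugates in the kidney, was 3.47, 3.67 and 4.90 against 5.11, 4.47 and 4.49. Rats 1 and 2 were below the normal rats and rat 3 was within their range, and the change was -0.67 ± 0.26 (adjusted p = 0.0418). Without rat 3 it was -1.12 ± 0.22 (adjusted p = 0.000165). It did not pass without ischemia rat 1 (-0.40, adjusted p = 0.244), ischemia rat 2 (-0.50, adjusted p = 0.169) or normal rat 1 (-0.47, adjusted p = 0.201). Nat9 passed in no comparison with all rats. It was -0.78, -0.65 and -0.46 at 8 h of ischemia against -0.13, -0.53 and -0.64, and its largest change was -0.34 ± 0.12 at 8 h after mercuric chloride (adjusted p = 0.0823).

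Leaving out ischemia 8 h rat 3 altered which members passed more than how many. Without it 2 members rose (Nat10 and Ugt2b7) and 13 fell, with 19.6% of all probes higher and 26.8% lower. Gstm5, Sult2b1 and Ugt1a6 no longer passed, and Gsta2, Gstt3, Mgst1 and Nat9 did, all lower, with changes of -0.74, -1.02, -0.47 and -0.28.

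**Figure D5:**
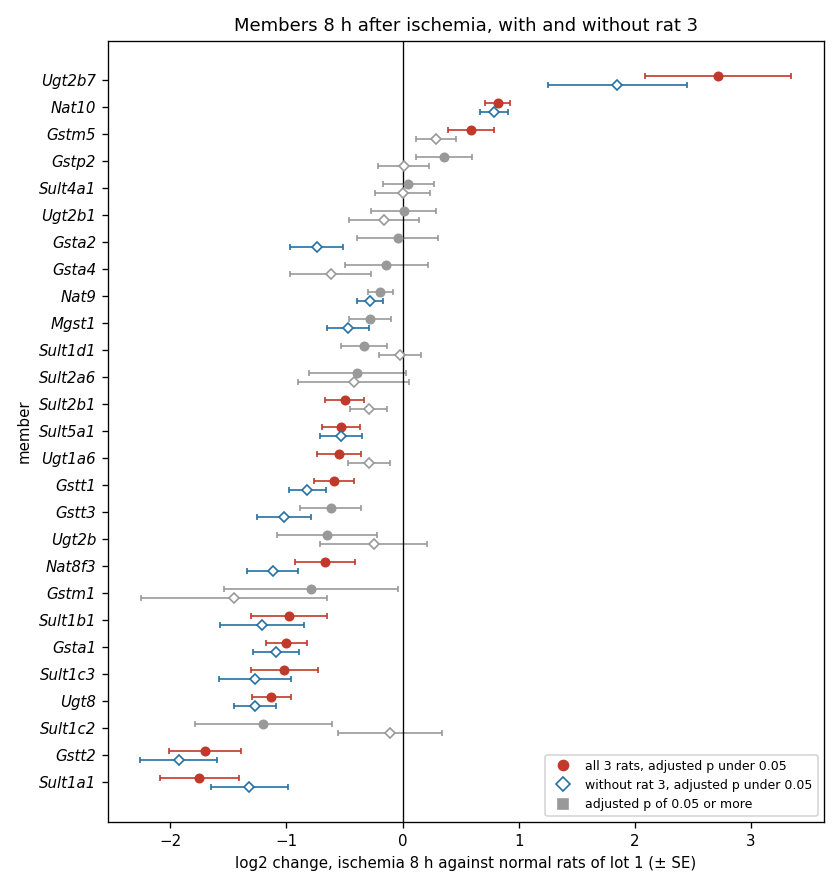
Log2 change of each member at 8 h of ischemia from the normal rats of lot 1 (± SE), with all 3 rats (filled circles) and without rat 3 (open diamonds). Coloured symbols passed the adjusted p threshold of 0.05 and grey ones did not. Most members lie to the left of 0 in both, and Gsta2, Sult1c2 and Ugt2b7 move most when rat 3 is left out.

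The 8 h and 2 h ischemia groups, both on lot 1, were compared directly. At 8 h 4 members were higher and 7 lower than at 2 h, 40.7% of the members, while 37.7% of all probes passed (20.5% higher and 17.2% lower). Ugt2b7 was higher at 8 h by 2.99 ± 0.59 (7.92-fold, adjusted p = 0.000293), Nat10 by 1.04 ± 0.11 (adjusted p = 4.45e-08), Gstp2 by 0.88 ± 0.23 (adjusted p = 0.0033) and Gstm5 by 0.61 ± 0.18 (adjusted p = 0.0104). Without ischemia 8 h rat 3 the difference was 2.12 for Ugt2b7 (4.35-fold, adjusted p = 0.00473) and 0.54 for Gstp2 (adjusted p = 0.049). Gstp2 was 5.20, 5.56, 5.60 and 5.79 at 2 h, below all rats at 8 h, and its change from normal at neither hour passed. Sult1a1 was lower at 8 h by -1.72 ± 0.31 (3.3-fold lower, adjusted p = 0.000118) and Gstt2 by -1.31 ± 0.29 (adjusted p = 0.000758). The other 5 lower members were Gsta1, Ugt1a6, Gstt1, Ugt8 and Sult2b1, with changes of -0.67, -0.56, -0.53, -0.44 and -0.43. Gstm5, Ugt1a6 and Sult2b1 did not pass without ischemia 8 h rat 3 (0.31, -0.30 and -0.23, adjusted p = 0.145, 0.18 and 0.273). Gstt1 did not pass without ischemia 8 h rat 1 (-0.35, adjusted p = 0.0946). Ugt8 did not pass without ischemia 8 h rat 1 or 2 (-0.38 and -0.36, adjusted p = 0.103 and 0.122) or ischemia 2 h rat 3 or 4 (-0.35 and -0.33, adjusted p = 0.116 and 0.128). Sult2b1 did not pass without ischemia 2 h rat 1 or 3 (-0.40 and -0.36, adjusted p = 0.0739 and 0.0949).

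Between ischemia with and without αMSH at 2 h, no member passed by limma, and none had an unadjusted p under 0.05. No probe of the array passed in that comparison (0%), where 342 had an unadjusted p under 0.05. The Ugt2b7 difference was -0.28 ± 0.59 with a 95% interval of -1.50 to 0.95.

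The remaining comparisons set injuries against sham or against each other. Against sham at 8 h, each group first taken from the normal rats of its lot, ischemia had 1 member higher (Nat10, 0.87 ± 0.17) and 8 lower, while 22.9% of all probes passed, 11.9% higher and 11% lower. Sult1a1 (-2.38 ± 0.50), Gstt2 (-1.71 ± 0.46) and Gsta1 (-1.19 ± 0.27) had the smallest adjusted p among the 8, at 0.00114, 0.008 and 0.00206. Gstt2 was lost without normal rat 12 (-1.16, adjusted p = 0.121). The other 5 were Ugt8, Sult5a1, Sult1c3, Sult1b1 and Nat8f3, each of which was lost without at least 2 of the 11 rats. Mercuric chloride at 8 h had 2 members above sham, Ugt2b7 and Ugt8, with 13.2% of all probes passing, 5.91% higher and 7.27% lower. Against ischemia at 8 h, mercuric chloride had 5 members higher and 1 lower, with 11.8% of all probes passing, 5.06% higher and 6.79% lower. The higher members were Ugt2b7 (3.08), Sult1a1 (2.14 ± 0.50, adjusted p = 0.00604), Ugt8 (1.45), Mgst1 (0.92) and Gsta1 (0.89), and the lower was Nat10 (-0.85 ± 0.17, adjusted p = 0.00148). Nat10 and Ugt8 held without any single rat, and Sult1a1 was lost without normal rat 11 (1.60, adjusted p = 0.082). Gsta1 was lost without any of 6 rats and Mgst1 without any of 5. Between 8 h and 2 h after mercuric chloride no member passed by limma, and 5 had an unadjusted p under 0.05, with 0.693% of all probes passing, 0.501% higher and 0.192% lower.

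Genes that supply or follow conjugation were read from lists, which share some genes. No list was tested as a set, and the counts stand beside the shares of all probes. Those were 20.8% higher and 20.9% lower at 8 h of ischemia, and 7.36% and 7.37% at 2 h. After mercuric chloride they were 3.07% and 4.61% at 2 h, and 5.27% and 5.66% at 8 h. The list for cofactor supply also held hydrolases of conjugates, such as Arsa. Of its 13 genes tested, 1 rose and 7 fell at 8 h of ischemia. Ugdh, which makes UDP-glucuronic acid, rose by 1.17 ± 0.21 (adjusted p = 6.97e-05), and by 1.74 ± 0.23 at 8 h after mercuric chloride (adjusted p = 1.39e-05), where 1 rose and 1 fell. The 3 largest falls at 8 h of ischemia were in Acss2 (acetyl-CoA synthetase, -1.72 ± 0.25), Arsa (arylsulfatase A, -1.37 ± 0.16) and Papss2 (which makes PAPS, -0.97 ± 0.19). Their adjusted p were 3.82e-06, 1.68e-07 and 0.000161. At 2 h none of the 13 passed after ischemia, and 1 fell after mercuric chloride.

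Of 17 genes of glutathione synthesis and recycling, 4 rose and 6 fell at 8 h of ischemia, and 4 rose and 1 fell at 8 h after mercuric chloride. Chac1, which degrades glutathione, rose in every injury group but cisplatin: 4.09 at 2 h and 3.15 at 8 h of ischemia, 3.82 with αMSH, and 5.91 and 5.31 at 2 h and 8 h after mercuric chloride. Gpx2, a glutathione peroxidase, rose by 3.17 ± 0.59 at 8 h of ischemia (adjusted p = 0.000105), and Oplah, which returns 5-oxoproline to glutamate, fell by 1.46 on the log2 scale (adjusted p = 1.7e-08). Gclm, the modifier subunit of the enzyme that limits glutathione synthesis, was singled out after its values were seen. It fell by 0.68 on the log2 scale at 8 h of ischemia (adjusted p = 0.00115) and rose by 0.63 at 8 h after mercuric chloride (adjusted p = 0.00439).

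Of the mercapturate and export genes, 3 of 15 tested rose and 6 fell at 8 h of ischemia, 2 of 15 rose at 2 h after mercuric chloride, and 3 of 14 rose and 2 fell at 8 h. Abcc2, the apical pump for conjugates, rose by 2.55 ± 0.33 at 8 h of ischemia (adjusted p = 1.1e-06) and by 2.13 ± 0.33 at 2 h after mercuric chloride (adjusted p = 0.000184). Abcc4 rose by 1.27 ± 0.29 at 8 h after mercuric chloride (adjusted p = 0.00443). At 8 h of ischemia Abcc6 fell by 1.43 and Slco1a1, an organic anion transporter, by 1.19 on the log2 scale (adjusted p = 6.3e-09 and 0.000131).

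Of 16 other drug-metabolising enzymes, 2 rose and 6 fell at 8 h of ischemia, 1 rose at 2 h after mercuric chloride, and 3 rose and 1 fell at 8 h. Akr1b8, an aldo-keto reductase, rose by 4.85 ± 1.00 at 8 h of ischemia (adjusted p = 0.000341) and by 4.97 ± 1.12 at 8 h after mercuric chloride (adjusted p = 0.0037). Ephx1, the microsomal epoxide hydrolase, rose by 2.03 ± 0.32 at 8 h after mercuric chloride (adjusted p = 8.32e-05). As3mt, which methylates arsenic, fell by 1.63 on the log2 scale at 8 h of ischemia (adjusted p = 0.00773).

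A list of genes outside the members was drawn up around Nrf2, the transcription factor that responds to oxidants and electrophiles. It included regulators such as Nrf2 itself, and control of its genes by Nrf2 was not tested here. Of 14 such genes, 8 rose and none fell at 8 h after mercuric chloride. The list had 4 higher at 2 h after mercuric chloride, 4 higher at 2 h of ischemia, 5 higher and 3 lower at 8 h of ischemia, and 1 higher after cisplatin. Hmox1, heme oxygenase 1, rose by 6.90 ± 0.33 and Srxn1, sulfiredoxin, by 4.87 ± 0.32 at 8 h after mercuric chloride (adjusted p = 1.94e-13 and 1.96e-10). Nqo1, a quinone reductase, rose by 2.42 ± 0.43 and Txnrd1, thioredoxin reductase, by 2.09 ± 0.38 (adjusted p = 0.000393 and 0.000473). The median change of the list there was 0.73, against -0.09 for the 27 members and -0.03 for all probes.

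Of 14 nuclear receptors and other factors known to control conjugation genes, 2 rose and 4 fell at 8 h of ischemia, and 4 fell at 8 h after mercuric chloride. Hnf4a fell by 1.38 on the log2 scale at 8 h of ischemia, and the pregnane X receptor Nr1i2 by 1.12 and the bile acid receptor Nr1h4 by 1.02 (adjusted p = 9.17e-05, 0.00032 and 8.98e-05). At 8 h after mercuric chloride Nr1i2 fell by 1.46 and Nr1h4 by 0.92 on the log2 scale (adjusted p = 0.000351 and 0.00417).

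Marker genes of kidney cells also moved, in part in groups where no member passed. Of 16 proximal tubule markers tested, 13 fell at 8 h of ischemia, 8 at 8 h and 3 at 2 h after mercuric chloride, 1 each at 2 h of ischemia, with αMSH and in volume depletion, and none rose against normal rats. Their median change was -1.0 at 8 h of ischemia, beside -0.53 for the members, and -0.62 at 8 h after mercuric chloride. The log2 of their summed level was 9.14 to 9.69 in the normal rats of lot 1 and 8.42 to 9.45 at 8 h of ischemia. It was 9.20 in both normal rats of lot 2 and 8.63 to 8.91 at 8 h after mercuric chloride. Of 9 markers from the collecting duct, loop of Henle and distal nephron, 7 fell at 8 h of ischemia, 1 at 2 h of ischemia, 1 of the 8 tested with αMSH, and none passed after mercuric chloride. All 7 tubular injury markers rose at 8 h of ischemia, 4 at 2 h of ischemia, 5 with αMSH, 4 at 8 h after mercuric chloride, and 1, Lcn2, in volume depletion (1.53, adjusted p = 0.000763). Alas2, the red blood cell marker on the array, rose by 2.49 at 2 h of ischemia, 2.27 with αMSH, 1.92 at 8 h of ischemia and 1.77 at 8 h after mercuric chloride. Of 9 leukocyte markers, 3 rose at 8 h of ischemia and 2 at 8 h after mercuric chloride, while 2 rose and 3 fell at 2 h of ischemia, with and without αMSH. At 2 h after mercuric chloride 1 rose and 1 fell. The neutrophil gene S100a9 rose in each of those groups, and also in sham rats, by 2.47 (adjusted p = 0.0277). Of 6 endothelial markers, 1 rose and 2 fell at 8 h of ischemia. The part of these markers in the members' changes was not tested.

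Liver is the tissue richest in many of these enzymes. Of 8 liver markers tested, none passed at either hour after mercuric chloride, and Alb was at the floor in all 6 of those rats. The log2 of their summed level was 1.11 to 3.15 at 2 h after mercuric chloride, against 1.22 to 2.55 in the normal rats of lot 1. At 8 h after mercuric chloride it was 1.78 to 2.38, against 1.84 to 2.01 in the normal rats of lot 2. At 8 h of ischemia Fgb and Hp rose by 1.94 and 1.15, Tat fell by 0.50 on the log2 scale, and the summed level was 1.81 to 2.76, against 1.22 to 2.55 in normal rats. None of the 3 adrenal and 4 fat markers tested passed against normal rats.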

How the data were processed

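Per the labels, total kidney RNA was labelled with biotin and hybridised to CodeLink arrays. The deposited values are on another scale than intensity: the values themselves show that their log2 is the intensity over the array median. Values deposited as 0.5 (0.969% of all) were taken as missing. The array of sham rat 3 was out of line with the others by 2 lines (correlation 0.0652, and 0.984 once moved), and its values were moved. The labels give no lot per array. Lots followed the pattern of missing probes: 47 probes were missing on all 12 arrays of lot 2 and on none of lot 1, and 8 the other way round.

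Arrays of a rat were averaged and levels floored at 0.1 of the median. All 31 rats entered a limma 3.58.1 fit (R 4.3.3) with 1 mean per group and lot, checked on simulated data. Probes needed at least 2 measured rats in each group compared, values in most rats, and 3 rats above the floor. P-values were adjusted over all probes tested. They set a change against the spread between rats within groups, estimated from all groups of the fit. The number of rats limits the precision. Probe specificity among similar genes of a family was not tested. Members that passed against normal rats get each rat's value. Of the others the rule named only the 1 of largest change, Gstm1. Gsta2, Gsta4, Gstp2, Gstt3, Ugt2b, Ugt2b1, Sult1c2, Sult2a6 and Nat9 were described beside it after their values were seen. List genes were named by size of change, up to 4 a list. A gene that the rule would name is not reported here. Members and lists were chosen with earlier results of these data known. Promoters matched by gene ID for 23 of 27 members. The alternatives tried were the floor, the normalization, the lot term, the filter, the arrays averaged, the groups fitted, the replicate block and each rat left out.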

Additional observations from a re-analysis of the deposited data

Results flagged for a closer look

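In groups of 4 rats, 3 members had 1 rat far from the others, among 54 such groups of values examined, and chance alone flags about 1 in 20 groups. Gstm1 was 0.50 in ischemia 2 h rat 1 and 2.90 to 3.34 in the other rats of the group. Gsta1 was 5.51 in volume depletion rat 3 and 5.74 to 5.78 in the others. Sult1c2 was 3.15 in volume depletion rat 1 and 4.07 to 4.16 in the others.

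Between 8 h and 2 h of ischemia 11 members differed in a direct limma test. The differences were 2.99 for Ugt2b7, 1.04 for Nat10, 0.88 for Gstp2 and 0.61 for Gstm5, and -1.72 for Sult1a1, -1.31 for Gstt2, -0.67 for Gsta1, -0.56 for Ugt1a6, -0.53 for Gstt1, -0.44 for Ugt8 and -0.43 for Sult2b1.

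A dimmer probe of Sult1d1, left out in favour of the brighter one, was higher at 8 h of ischemia by 0.49 ± 0.19 (limma, adjusted p = 0.0371). Its levels lay near the floor, and the brighter probe changed by -0.33 in the same rats, which did not pass.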

How the results depend on the processing

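Of 51 member changes called in all comparisons, 20 kept their call under every other setting, 29 lost it under at least 1 and 2 reversed, and 31 lost it without at least 1 rat. In this section the shares of all probes under each setting are not given, so no shift is read as particular to the members. The counts of members called that moved by over 1.5 times were as follows. With the floor at 0.2, ischemia with αMSH had 0. With quantile normalization, ischemia 2 h had 4 and mercuric chloride 8 h against sham 4. With no lot term, ischemia 2 h had 5, αMSH 2, mercuric chloride 8 h 4, mercuric chloride against ischemia at 8 h 10, and mercuric chloride 8 h against 2 h 2. With the first array of each rat, mercuric chloride 8 h had 1 and the normal rats of both lots 0. With only the groups compared in the fit, which leaves fewer rats to estimate the spread, ischemia 2 h had 1, αMSH 0, ischemia 8 h 5, mercuric chloride 2 h 1 and 8 h 4, ischemia 8 h against 2 h 5, and mercuric chloride 8 h against sham 9. There Ugt2b7 at 8 h of ischemia (adjusted p = 0.0658) and Ugt8 at 2 h (adjusted p = 0.0625) no longer passed. With sham rat 3 in the deposited order, ischemia 8 h against sham had 0, and Nat10 (-1.10) and Nat8f3 (1.67) reversed. The 3 doubted arrays were chosen after seeing the data: those of ischemia 8 h rat 3 and normal rat 1, and the first of volume depletion rat 1. For normal rat 1 and this volume depletion array, the median correlation with arrays of other rats of the group and lot was 0.976 and 0.966. Without the 3 doubted arrays, αMSH had 0, mercuric chloride 8 h 5, mercuric chloride 8 h against sham 7 and against 2 h 1, and the normal rats of both lots 3. Apart from the deposited order and the floor, the cause of these shifts was not tested.

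With 1 rat left out, the counts ranged from 1 to 3 for ischemia 2 h, 0 to 2 for αMSH, 11 to 15 for ischemia 8 h, 1 to 3 for mercuric chloride 2 h, 1 to 2 for mercuric chloride 8 h against normal and against sham, 9 to 11 for ischemia 8 h against 2 h, 5 to 12 for ischemia 8 h against sham, 2 to 7 for mercuric chloride against ischemia at 8 h, and 0 to 3 for the normal rats of both lots.

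The deviations of same-numbered rats of different groups had a median correlation of 0.032 in lot 1 and 0.015 in lot 2. For differently numbered rats it was 0.006 and -0.007. Single same-numbered pairs ranged from -0.586 to 0.534 in lot 1 and from -0.300 to 0.252 in lot 2. The numbers were not taken to pair rats, though medians near each other cannot exclude some pairing. With the replicate block, mercuric chloride 8 h against sham had 5 members called, and no other count moved by over 1.5 times. No paired analysis was possible because the normal rats of lot 2 share no number with the groups of that lot, for sham, cisplatin and mercuric chloride 8 h against normal rats.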
